A study of Homo sapiens with 8 samples.

Results

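Amino acids enter and leave the cell through carriers in the plasma membrane, and mRNA for 9 of these carriers was followed here by RNA-Seq in the prostate carcinoma line DU145. The genes were SLC7A5, SLC3A2, SLC7A6, SLC1A4, SLC1A5, SLC7A1, SLC38A1, SLC38A2 and SLC6A9, taken by symbol from the 23391 genes of the count table, and all 9 were found and passed the filter on low counts, which left 13856 genes. The study asked how the nuclear receptor Esrrb (estrogen related receptor beta) and DY131, an agonist of Esrrb and Esrrg, alter gene expression. All cells were DU145 carrying a stably transfected pcDNA3.1-zeo plasmid, selected for 3 weeks in 150 µg/ml Zeocine and kept as pools of transfectants rather than as clones. DU145-pc3.1 cells carried the empty plasmid and DU145-Esrrb cells carried the Esrrb transgene. Each pool was measured untreated and after 3 µM DY131 in RPMI1640 medium with charcoal-stripped serum, which gave 4 groups of 2 libraries (DU145-pc3.1, DU145-Esrrb, DU145-pc3.1+DY131 and DU145-Esrrb+DY131). The duration of the treatment and a vehicle for the untreated cells were not given in the sources used here.

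Heteromeric transporters pair a glycosylated heavy chain, SLC3A2 (4F2hc or CD98), with a light chain that binds the substrate. SLC7A5 (LAT1) takes up large neutral amino acids such as leucine, and SLC7A6 (y+LAT2) exchanges cationic for neutral amino acids. The other carriers work without SLC3A2: SLC1A5 (ASCT2) exchanges glutamine and other neutral amino acids, SLC1A4 (ASCT1) carries alanine, serine, cysteine and threonine, SLC7A1 (CAT1) carries arginine and lysine, SLC38A1 and SLC38A2 (SNAT1 and SNAT2) are sodium-coupled carriers of small neutral amino acids, and SLC6A9 (GlyT1) carries glycine. When amino acids are scarce, the kinase EIF2AK4 (GCN2) raises translation of the transcription factor ATF4, which binds composite C/EBP-ATF elements and induces several of these genes.

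Because ATF4 and estrogen related receptors act through short DNA elements, the start regions of the genes were read from RefSeq (GRCh38.p14), each with 250 bases before and 50 bases after a transcript start. The 9 genes had 15 such entries, some with alternative starts. The letters TGATGNAAN, those of a composite C/EBP-ATF element, were found on either strand in 5 of the 15 entries, belonging to 5 of the 9 genes. The same letters were in 3.61% of all 35116 RefSeq start regions and in 4.45% of all 27305 genes in at least 1 entry. The letters TNAAGGTCA, those of an estrogen related receptor element, were in none of the 15 entries and in 0.951% of all start regions. The 5 entries with a composite match are shown because they include genes that fell and genes that rose with DY131, as described in the following paragraphs. The match is in capitals.
SLC3A2 (chr11:62881449-62881748, plus strand): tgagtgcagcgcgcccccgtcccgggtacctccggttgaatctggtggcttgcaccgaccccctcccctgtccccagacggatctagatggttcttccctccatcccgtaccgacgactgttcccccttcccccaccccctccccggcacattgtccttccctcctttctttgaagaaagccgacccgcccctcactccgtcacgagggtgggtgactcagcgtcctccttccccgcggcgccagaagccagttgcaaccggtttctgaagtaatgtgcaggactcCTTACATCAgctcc
SLC1A4 (chr2:64989149-64989448, plus strand): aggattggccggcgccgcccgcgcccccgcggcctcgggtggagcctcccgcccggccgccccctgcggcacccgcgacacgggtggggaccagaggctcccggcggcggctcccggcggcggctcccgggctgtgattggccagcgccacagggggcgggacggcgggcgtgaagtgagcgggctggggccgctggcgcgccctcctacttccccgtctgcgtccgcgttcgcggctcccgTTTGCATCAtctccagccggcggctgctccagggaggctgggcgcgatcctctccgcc
SLC1A5 (chr19:46784765-46785064, minus strand): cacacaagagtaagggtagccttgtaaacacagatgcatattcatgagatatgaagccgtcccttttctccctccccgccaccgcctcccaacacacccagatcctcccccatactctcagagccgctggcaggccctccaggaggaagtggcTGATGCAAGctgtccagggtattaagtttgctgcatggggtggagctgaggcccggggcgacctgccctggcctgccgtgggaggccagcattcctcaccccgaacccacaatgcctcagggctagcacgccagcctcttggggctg
SLC7A1 (chr13:29595639-29595938, minus strand): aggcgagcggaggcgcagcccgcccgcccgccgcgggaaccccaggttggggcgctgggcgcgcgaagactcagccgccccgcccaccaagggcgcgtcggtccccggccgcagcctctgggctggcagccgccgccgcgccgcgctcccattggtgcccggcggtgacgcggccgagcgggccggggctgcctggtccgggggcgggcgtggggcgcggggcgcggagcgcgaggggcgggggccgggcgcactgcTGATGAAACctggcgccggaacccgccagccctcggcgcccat
SLC38A1 (chr12:46266467-46266766, minus strand): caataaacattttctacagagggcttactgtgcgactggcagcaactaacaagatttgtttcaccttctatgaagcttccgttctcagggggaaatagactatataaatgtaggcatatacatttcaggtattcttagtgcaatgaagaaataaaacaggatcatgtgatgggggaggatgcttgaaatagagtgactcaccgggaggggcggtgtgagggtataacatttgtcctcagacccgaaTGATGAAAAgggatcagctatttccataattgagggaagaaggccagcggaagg
In the annotation of GENCODE (GRCh38) both light chains among the 9 genes lie on chromosome 16. SLC7A5 is at chr16:87830023-87869488 (minus strand), SLC7A6 at chr16:68264516-68301823 (plus strand) and SLC3A2 at chr11:62856102-62888875 (plus strand). SLC1A4 is at chr2:64988477-65023865 (plus strand) and SLC1A5 at chr19:46774883-46788594 (minus strand). SLC38A1 (chr12:46183063-46270017) and SLC38A2 (chr12:46358189-46372867) are neighbours on the minus strand, where SLC7A1 (chr13:29509410-29595688) and SLC6A9 (chr1:43991500-44031467) also lie. Counted from the transcript start, the first base of the match was at +37 in SLC3A2, -8 in SLC1A4, -97 in SLC1A5, +8 in SLC7A1 and -4 in SLC38A1. Apart from SLC7A1, none of these is the entry nearest to the start of the transcript listed in the table, so the match lies at another annotated start. No match was found in the entries of SLC7A5, SLC7A6, SLC38A2 and SLC6A9, which says only that these letters are not in these windows.

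The libraries held between 7858743 and 11551690 counted reads. ESRRB, the transgene, had 99 to 143 reads in the 4 DU145-Esrrb libraries with and without DY131 and 0 to 3 reads in the 4 DU145-pc3.1 libraries, so the labels and the receptor went together. Per library total, the transgene was also higher with DY131, at 8.83 and 9.10 cpm (reads scaled to a common library total) in DU145-Esrrb and 13.7 and 16.2 cpm in DU145-Esrrb+DY131 (log2 fold change 0.74, adjusted p = 0.00315). ESRRG, the other receptor DY131 activates, had at most 1 read in any library. The epithelial genes EPCAM, CDH1, KRT8, KRT18 and KRT19 were detected in every library, while KRT5 had at most 1 read. Of the 5 epithelial genes tested, 3 were called with DY131 in DU145-pc3.1 (KRT8 higher, CDH1 and KRT19 lower) and 4 in DU145-Esrrb (KRT8 and KRT19 higher, CDH1 and EPCAM lower). Their log2 fold changes lay between -0.75 for CDH1 in DU145-pc3.1 and 0.38 for KRT8 in DU145-Esrrb. Of all tested genes, 37.4% and 58.7% were called in these comparisons. Between the untreated pools CDH1 alone of the epithelial genes was called (-0.54), beside 4.18% of all tested genes. Between the treated pools CDH1 (-0.50) and EPCAM (-0.57) were lower and KRT8 (0.33) and KRT19 (0.36) higher in DU145-Esrrb+DY131, beside 50.4% of all tested genes called. The prostate luminal gene TMPRSS2 had at most 1 read, and KLK2 and KLK3 had none. The summed level of 9 genes of blood, endothelial and stromal cells lay between 3.91 and 7.22 cpm, with CD3E and DCN at 0 reads, and was lowest in DU145-Esrrb+DY131 (3.91 and 4.18 cpm). The part of the transgene level and of these genes in the transporter results was not tested. These are bulk libraries, in which fewer cells of a type and less RNA per cell cannot be told apart.

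Levels are given as cpm scaled by trimmed mean of M values (TMM), and, where genes are compared with each other, as cpm per kilobase of the listed transcript. In untreated DU145-pc3.1 cells SLC7A5 had the highest level per kilobase, 167 ± 5.67 (SD, n = 2), followed by its heavy chain SLC3A2 at 126 ± 5.82 and SLC1A5 at 110 ± 7.75 cpm per kilobase. SLC38A2 stood at 89.5 ± 1.88, SLC38A1 at 41.1 ± 0.297 and SLC7A1 at 28.3 ± 0.924 cpm per kilobase. SLC1A4 (18.0 ± 0.200), SLC7A6 (16.7 ± 0.623) and SLC6A9 (7.24 ± 0.0643 cpm per kilobase) were the lowest. The libraries of no pair of neighbours in this order overlapped. In DU145-pc3.1+DY131 the order differed: SLC38A2 (85.7 to 91.3) stood beside SLC3A2 (84.8 to 86.7 cpm per kilobase) and above SLC1A5, and SLC7A6 (mean 24.3) stood above SLC1A4 (mean 11.4). Only SLC38A2 and SLC3A2 overlapped there. The place of SLC1A4 and SLC1A5 depends on the transcript used, since the listed ones are 1217 and 1750 bases long and the longest ones 5789 and 2882 bases. With the longest transcripts, SLC1A4 was the lowest at 3.79 and SLC1A5, at 66.7 cpm per kilobase, came after SLC38A2 in DU145-pc3.1.

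Esrrb alone was compared in untreated cells (DU145-Esrrb against DU145-pc3.1), and none of the 9 transporters passed the test. A gene was called when the adjusted p-value of edgeR's quasi-likelihood test, Benjamini-Hochberg adjusted over all 13856 genes, was under 0.05. By this rule 4.18% of all tested genes were called in this comparison, 1.68% higher and 2.50% lower, and 0.577% were also past 2-fold. SLC1A4 had the largest difference, with 21.8 and 22.1 cpm in DU145-pc3.1 and 18.1 and 18.5 cpm in DU145-Esrrb. The libraries did not overlap, as for 51.6% of all tested genes, and the log2 fold change was -0.26 (SE 0.11, adjusted p = 0.225). It was the single transporter with an unadjusted p under 0.05. The other log2 fold changes lay between -0.13 for SLC6A9 and 0.01 for SLC38A2, and the median of the 9 was -0.08, against 0.00 over all tested genes. DESeq2 and edgeR's exact test also called 0 of 9, and the shares of all tested genes they called are not given here.

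**Figure D1:**
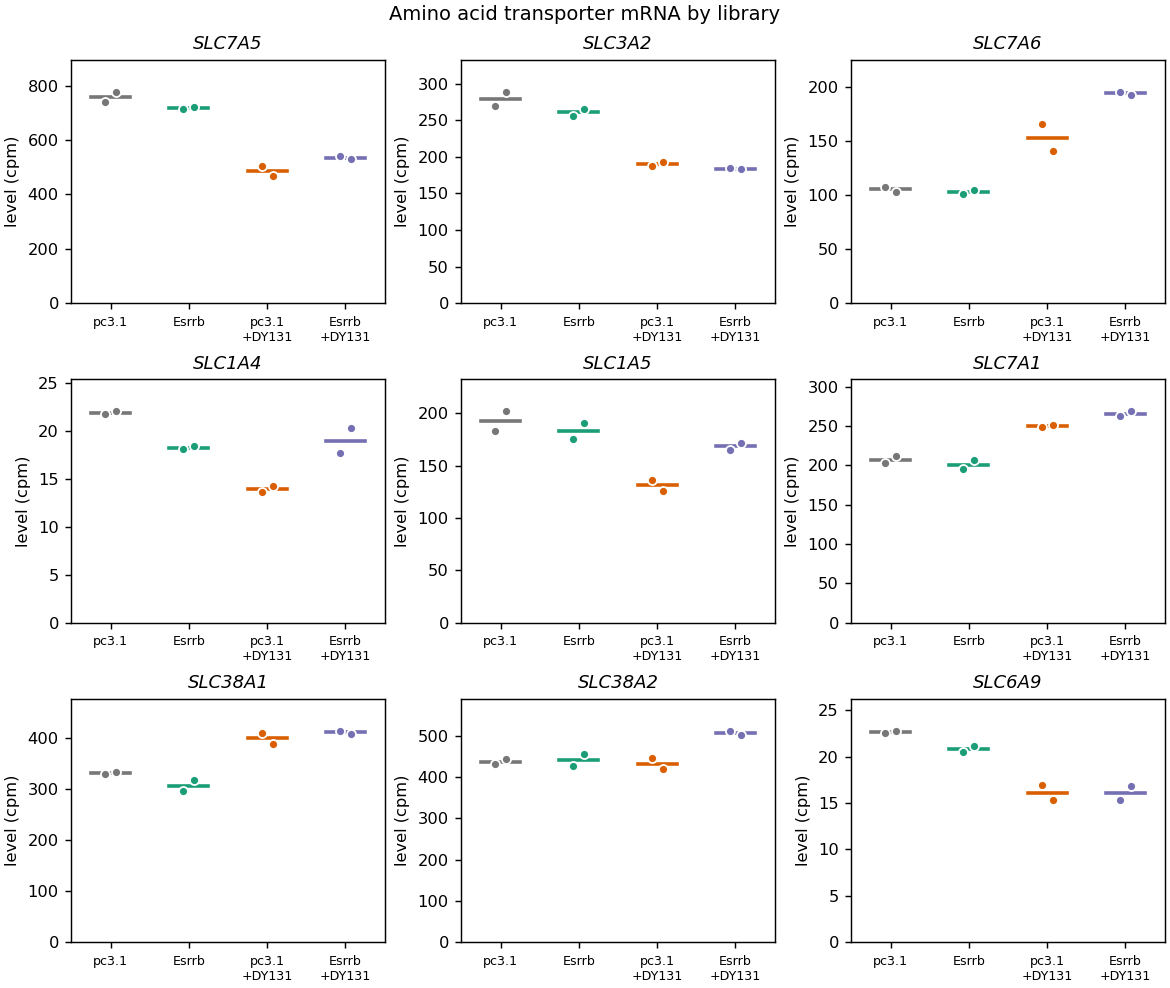
Level of each transporter mRNA (TMM-scaled cpm, each axis from 0) in the 4 groups; points are libraries, 2 a group, and the horizontal line is their mean. The untreated groups lie close together in every panel, and SLC1A4 and SLC1A5 are lower in DU145-pc3.1+DY131 than in any other group.

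DY131 was then compared with no treatment in DU145-pc3.1 cells, where both of its receptors were at or near 0 reads. Of the 9 transporters, 8 were called, 5 lower and 3 higher, where 37.4% of all tested genes were called, 18.5% lower and 18.9% higher. The carriers that fell were SLC7A5 and its heavy chain SLC3A2, SLC1A4, SLC1A5 and SLC6A9, and those that rose were SLC7A6, SLC7A1 and SLC38A1. The median log2 fold change was -0.49, beside 0.00 over all tested genes, and the median absolute one 0.54, beside 0.24. The libraries of 8 of the 9 did not overlap, as for 65.5% of all tested genes. None changed 2-fold, as 4.19% of all tested genes did.

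SLC7A5 mRNA was 741 and 778 cpm in DU145-pc3.1 and 506 and 468 cpm in DU145-pc3.1+DY131. The treated libraries were both lower, and SLC7A5 fell by 0.64 on the log2 scale (SE 0.06, adjusted p = 1.10e-06), to 0.641 of its untreated level. SLC3A2 was 270 and 289 cpm without and 188 and 193 cpm with DY131, a log2 fold change of -0.55 (SE 0.06, adjusted p = 3.59e-06). Heavy and light chain thus fell side by side, and the ratio of SLC3A2 to SLC7A5 per kilobase was between 0.744 and 0.758 without DY131 and 0.760 and 0.840 with it. Of the 50-base windows of SLC7A5, 5.61% also occur in other genes, among them copies and an antisense gene that overlaps 116 of its bases. The pseudogenes SLC7A5P1 and SLC7A5P2 had 2 to 15 reads a library, against at least 4141 for SLC7A5.

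The second light chain went the other way. SLC7A6 was 108 and 103 cpm in DU145-pc3.1 and 166 and 141 cpm in DU145-pc3.1+DY131, and rose by 0.54 on the log2 scale (SE 0.07, adjusted p = 4.10e-05). Its treated libraries were far apart but both above the untreated ones. The ratio of SLC7A5 to SLC7A6 per kilobase was 9.52 and 10.5 in untreated and 4.23 and 4.62 in treated DU145-pc3.1 cells. SLC7A6OS, a gene on the opposite strand, overlaps 3371 bases (53.4%) of the SLC7A6 transcript, and whether reads were counted by strand was not given in the sources used here, so reads of the overlap cannot be told apart. SLC7A6OS was 31.9 and 26.9 cpm without and 32.7 cpm in both libraries with DY131 and was not called (log2 fold change 0.16, adjusted p = 0.208).

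The neutral amino acid exchangers of the SLC1 family fell together. SLC1A4 was 21.8 and 22.1 cpm without and 13.6 and 14.3 cpm with DY131, the largest fall of the 9 at -0.66 on the log2 scale (SE 0.11, adjusted p = 0.000355). SLC1A5 was 183 and 202 cpm without and 136 and 126 cpm with DY131 (log2 fold change -0.55, SE 0.07, adjusted p = 1.80e-05). In both genes the groups did not overlap. SLC6A9 was 22.5 and 22.8 cpm without and 16.9 and 15.3 cpm with DY131 (log2 fold change -0.49, SE 0.11, adjusted p = 0.00246). SLC1A4 and SLC6A9 rest on 144 to 259 reads a library in these 4 libraries, the fewest of the set.

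SLC7A1, the carrier of cationic amino acids, was 203 and 212 cpm without and 249 and 251 cpm with DY131, and SLC38A1 was 330 and 333 cpm without and 411 and 389 cpm with it. Both rose by 0.27 on the log2 scale (adjusted p = 0.00166 and 0.00168), with no overlap of the groups. After correction of every library for transcript length and GC content, neither was called any longer (log2 fold change 0.12 and 0.05, adjusted p = 0.150 and 0.531). SLC38A2, which lies beside SLC38A1 on chromosome 12, was 431 and 444 cpm without and 446 and 419 cpm with DY131. The groups overlapped, and the log2 fold change was -0.02 with a 95% interval from -0.14 to 0.11 (adjusted p = 0.855).

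**Figure D2:**
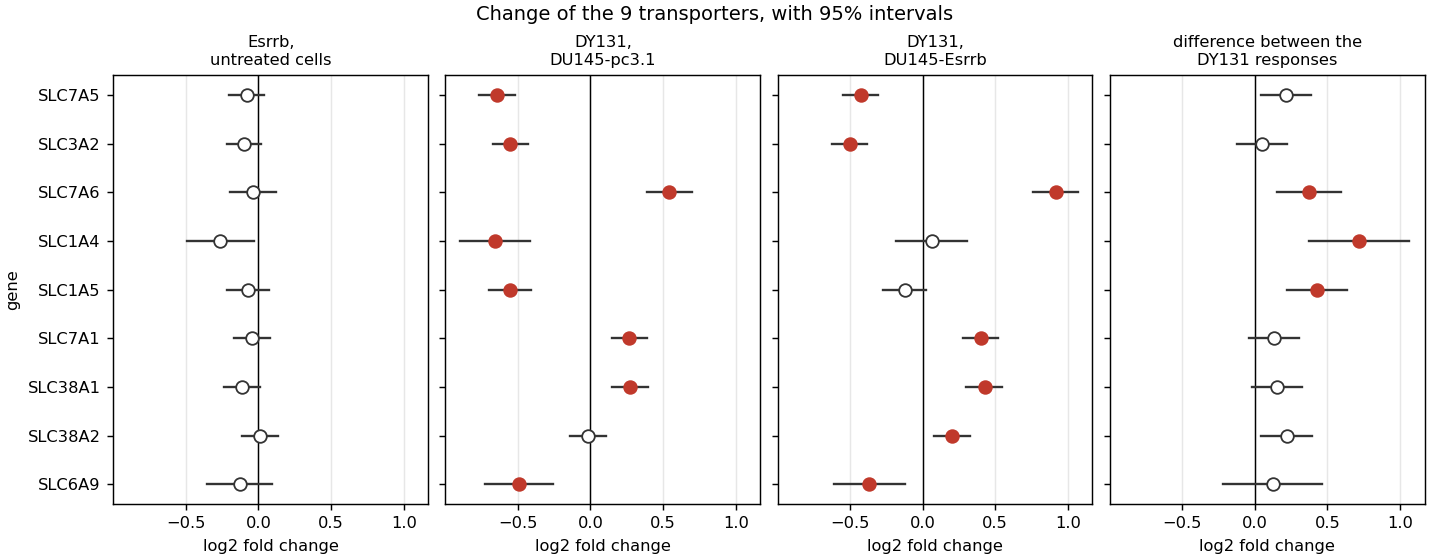
Log2 fold change of the 9 transporters (x axis) in 3 comparisons and in the difference between the DY131 responses; bars are 95% intervals, filled points have an adjusted p under 0.05. In DU145-pc3.1 5 points lie to the left and 3 to the right of 0, and in DU145-Esrrb the points of SLC1A4 and SLC1A5 lie at 0.06 and -0.12.

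In DU145-Esrrb cells DY131 changed 7 of the 9 transporters, 3 lower and 4 higher, where 58.7% of all tested genes were called, 29.5% lower and 29.2% higher. SLC7A5, SLC3A2 and SLC6A9 fell and SLC7A6, SLC38A1, SLC7A1 and SLC38A2 rose. SLC1A4 and SLC1A5 were not called. The median log2 fold change of the 9 was 0.06 and the median absolute one 0.40, beside 0.38 over all tested genes. The libraries of 8 of the 9 did not overlap, as for 82.2% of all tested genes. None passed 2-fold, as 12.0% of all tested genes did.

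SLC7A6 was 101 and 105 cpm in DU145-Esrrb and 196 and 193 cpm in DU145-Esrrb+DY131. It had the largest change of the 9 in the comparisons made, a log2 fold change of 0.92 (SE 0.07, adjusted p = 6.62e-08), or 1.89 times the untreated level. The overlapping SLC7A6OS was 31.4 and 32.2 cpm without and 41.5 and 41.9 cpm with DY131 (log2 fold change 0.39, adjusted p = 0.00192), so both genes of the pair rose here. SLC7A5 was 714 and 722 cpm without and 540 and 529 cpm with DY131 (log2 fold change -0.43, SE 0.06, adjusted p = 1.40e-05), and the ratio of SLC7A5 to SLC7A6 per kilobase went from 9.79 and 9.61 to 3.83 and 3.82. SLC3A2 fell from 256 and 266 to 185 and 183 cpm (log2 fold change -0.50, SE 0.06, adjusted p = 2.63e-06). Set against the sum of SLC7A5 and SLC7A6, SLC3A2 was 0.663 and 0.680 without and 0.555 and 0.560 with DY131. These ratios are not corrected for the trend with exon junctions described below. SLC3A2 has a junction share of 24.8%, against 9.74% for SLC7A5 and 8.10% for SLC7A6. The part of that trend in the ratios was not tested.

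**Figure D3:**
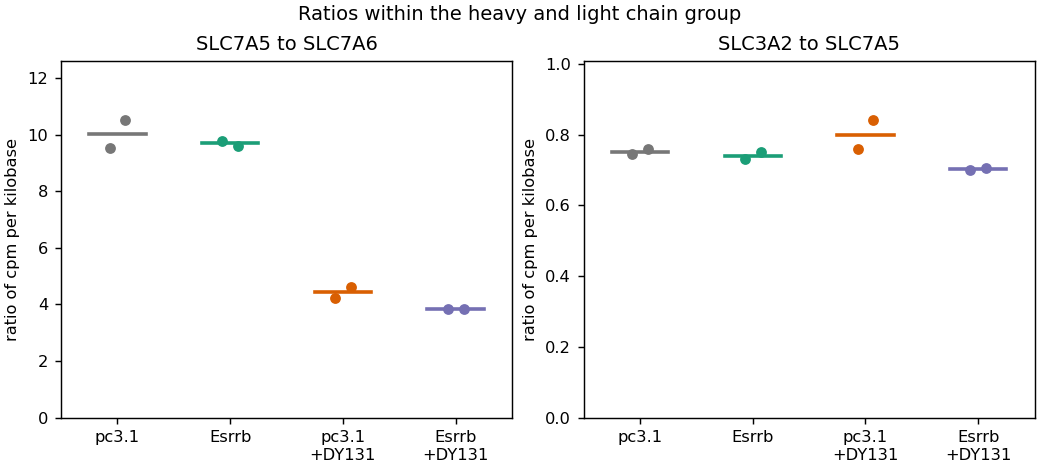
Ratio of cpm per kilobase (y axes, from 0) of the light chains SLC7A5 and SLC7A6, left, and of the heavy chain SLC3A2 to SLC7A5, right; points are libraries and lines their means. The left ratio lies between 9.52 and 10.5 without DY131 and between 3.82 and 4.62 with it, while the right ratio lies between 0.700 and 0.840 in all 8 libraries. No ratio is corrected for exon junctions.

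The SLC1 carriers were not called in this pool. SLC1A4 was 18.1 and 18.5 cpm in DU145-Esrrb and 17.7 and 20.3 cpm in DU145-Esrrb+DY131. The groups overlapped, and the log2 fold change was 0.06 (95% interval -0.18 to 0.31, adjusted p = 0.657). SLC1A5 was 175 and 191 cpm without and 165 and 172 cpm with DY131. The treated libraries were both lower, but the log2 fold change of -0.12 (95% interval -0.27 to 0.02, adjusted p = 0.136) did not pass the test. SLC1A5 did pass with library size alone (-0.185, adjusted p = 0.0339), in a fit of these 4 libraries alone (-0.135, adjusted p = 0.0189) and without DU145-pc3.1+DY131 replicate 1 (-0.129, adjusted p = 0.0427). SLC1A4 passed, as a rise, after the length and GC correction (0.28, adjusted p = 0.0484), and stood at -0.05 without the second listed DU145-Esrrb+DY131 library.

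SLC38A1 rose from 296 and 318 to 415 and 409 cpm (log2 fold change 0.43, SE 0.06, adjusted p = 1.49e-05), and SLC7A1 from 195 and 207 to 263 and 269 cpm (log2 fold change 0.40, SE 0.06, adjusted p = 2.22e-05). SLC38A2 was 426 and 455 cpm without and 513 and 502 cpm with DY131 (log2 fold change 0.20, SE 0.06, adjusted p = 0.00704). In all of these the treated libraries lay above the untreated ones. SLC6A9 fell from 20.5 and 21.1 to 15.3 and 16.8 cpm (log2 fold change -0.37, SE 0.115, adjusted p = 0.0125). The call of SLC38A2 was lost without DU145-Esrrb replicate 1 (adjusted p = 0.111), without the first listed DU145-Esrrb+DY131 library (0.0646) and after the length and GC correction (0.0984). That of SLC6A9 was lost without DU145-Esrrb replicate 2 (adjusted p = 0.0598), without the first listed DU145-Esrrb+DY131 library (0.101), with DESeq2 (0.0873) and after the length and GC correction (0.0511).

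In this comparison the change of all genes ran with the share of a transcript's 50-base windows that span an exon junction. Spearman's rho of share and change was -0.374 over 13666 genes, a description across genes that are not independent. With the genes split by share into 10 bins of equal size, the median log2 fold change went from 0.26 in the lowest bin to -0.55 in the highest. In DU145-pc3.1 the same rho was 0.0103, and between the treated pools it was -0.475. SLC7A6, SLC7A1 and SLC38A1 had low shares (8.10%, 8.06% and 9.78%), and SLC3A2 and SLC1A4 high ones (24.8% and 24.7%). Shares are those of the listed transcripts, which for SLC1A4 and SLC1A5 are 1217 and 1750 bases long, against 5789 and 2882 bases for the longest. Corrected values of both genes, here and in later comparisons, rest on the listed transcripts, and the longest were not tested. SLC7A6 lay above 95.2% of the genes of its bin, and SLC7A5, with a share of 9.74%, above 16.7%. After correction of every library for junction share, SLC7A6 stood at 0.77 (adjusted p = 5.71e-07), SLC38A1 at 0.32, SLC7A1 at 0.26, SLC38A2 at 0.22, SLC7A5 at -0.53 and SLC3A2 at -0.29 on the log2 scale, all still called. SLC6A9 (-0.24, adjusted p = 0.0876) was no longer called, SLC1A4 stood at 0.27 (adjusted p = 0.0589) and SLC1A5 at -0.01 (adjusted p = 0.875). With the correction 53.5% of all tested genes were called.

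**Figure D4:**
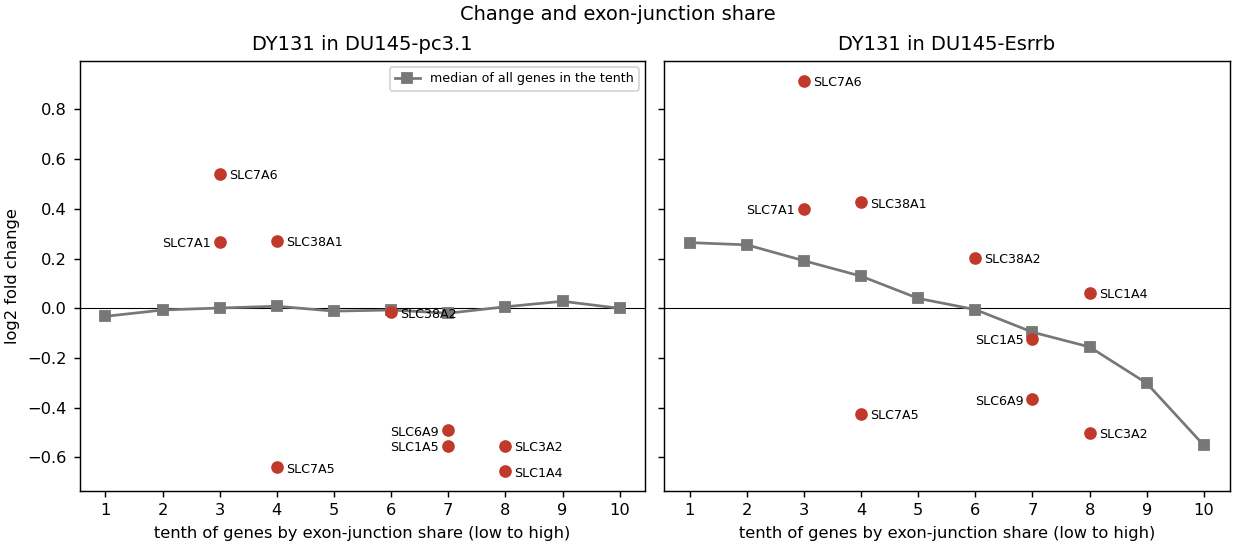
Log2 fold change (y axis) against 10 bins of genes ordered by exon-junction share (x axis) for DY131 in both pools; squares are medians over all genes of a bin and circles the transporters. The squares stay near 0 in DU145-pc3.1 and run from 0.26 to -0.55 in DU145-Esrrb, where SLC7A6 lies above and SLC7A5 below the squares of their bins.

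Whether the response to DY131 differed between the pools was tested directly, as the difference of the log2 fold changes (DU145-Esrrb minus DU145-pc3.1). It was called in 3 of 9 transporters, all higher in DU145-Esrrb, where 33.7% of all tested genes were called, 16.1% higher and 17.6% lower. None passed 2-fold, as 6.28% of all tested genes did. The difference was 0.72 for SLC1A4 (SE 0.16, adjusted p = 0.00331), 0.43 for SLC1A5 (SE 0.10, adjusted p = 0.00329) and 0.37 for SLC7A6 (SE 0.10, adjusted p = 0.0117). For the SLC1 carriers this is a fall in DU145-pc3.1 without a called change in DU145-Esrrb, and for SLC7A6 a larger rise in DU145-Esrrb. With the junction correction SLC1A4 stood at 0.95 (adjusted p = 0.000714) and SLC1A5 at 0.54 (adjusted p = 0.000874), while SLC7A6 was not called (0.24, adjusted p = 0.123). The corrected values of SLC1A4 and SLC1A5 rest on the short listed transcripts, and would differ if the table counts longer ones. SLC7A6 was also not called without DU145-Esrrb replicate 1 (adjusted p = 0.0522), without DU145-pc3.1 replicate 1 (0.0635) or without the first listed DU145-Esrrb+DY131 library (0.0581). SLC38A2 (0.22, adjusted p = 0.0506) and SLC7A5 (0.21, adjusted p = 0.0538) lay just short of a call, and both were called without DU145-pc3.1+DY131 replicate 1 (adjusted p = 0.00583 and 0.00346). The difference of SLC3A2 was 0.05 with a 95% interval from -0.12 to 0.22, and 0.28 with the junction correction (adjusted p = 0.0225). With that correction 22.8% of all tested genes were called.

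Between the treated pools (DU145-Esrrb+DY131 against DU145-pc3.1+DY131), 4 of the 9 were called, all higher, where 50.4% of all tested genes were called, 25.1% higher and 25.3% lower. None passed 2-fold, as 8.21% of all tested genes did. They were SLC1A4 (log2 fold change 0.46, SE 0.12, adjusted p = 0.00531), SLC1A5 (0.36, SE 0.07, adjusted p = 0.000551), SLC7A6 (0.34, SE 0.07, adjusted p = 0.00106) and SLC38A2 (0.23, SE 0.06, adjusted p = 0.00409). In each of the 4 genes the libraries of the treated pools did not overlap, as for 72.7% of all tested genes. SLC1A4 was not called without the second listed DU145-Esrrb+DY131 library (0.34, adjusted p = 0.0942), nor SLC38A2 without the first (0.21, adjusted p = 0.0526). SLC7A5 was not called (0.13, adjusted p = 0.0669), but was without DU145-pc3.1+DY131 replicate 1 (0.18, adjusted p = 0.00675). With the junction correction SLC7A6 stood at 0.20 (adjusted p = 0.0470), SLC1A4 at 0.69 (adjusted p = 0.00036), SLC1A5 at 0.47 and SLC38A2 at 0.25, all still called. SLC3A2 was at -0.05 and turned to 0.18 with that correction (adjusted p = 0.0228). With the correction 39% of all tested genes were called. This comparison shares its libraries with the DY131 comparisons and is no separate evidence for them.

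Further genes of amino acid handling were taken as whole lists. Their values are given without the junction correction. In comparisons with DU145-Esrrb+DY131 the trend with junction share applies to these genes too, and its part in the list results was not tested. Of 24 other plasma membrane amino acid transporters, 13 passed the filter on low counts, and SLC6A19, SLC7A3 and SLC7A13 had 0 reads in every library. None of the 13 was called for Esrrb in untreated cells, where 4.18% of all tested genes were called. With DY131, 4 of the 13 were called in DU145-pc3.1 (1 higher, 3 lower) and 7 in DU145-Esrrb (3 higher, 4 lower), where 37.4% and 58.7% of all tested genes were called. Those past 2-fold had few reads: SLC38A3, a glutamine carrier, went from 16 and 17 reads to 6 and 5 in DU145-pc3.1 (log2 fold change -1.49, adjusted p = 0.0136). In DU145-Esrrb SLC6A20, a proline carrier, went from 11 and 13 reads to 1 and 0, SLC38A3 from 14 and 11 reads to 2 and 2, and SLC43A1, a carrier of large neutral amino acids, from 64 and 59 reads to 16 and 17 (log2 fold change -1.44, adjusted p = 0.000149). SLC1A3, a glutamate carrier, went from 4 and 6 reads to 7 and 14. These are the 4 largest of 5 past 2-fold there, beside 12.0% of all tested genes past it. SLC6A20 had 18 and 10 reads in DU145-pc3.1+DY131, and its response differed between the pools (difference -3.85, adjusted p = 0.0101), as did that of SLC7A2, a carrier of cationic amino acids (1.31, adjusted p = 0.0121). The medians of the list with DY131 were -0.07 and 0.00, beside 0.00 and 0.00 over all tested genes. Of 7 lysosomal amino acid transporters, 6 were tested, with 0 called for Esrrb in untreated cells, beside the same 4.18% of all tested genes. With DY131, 2 of them rose in DU145-pc3.1 (median 0.09) and 4 rose and 1 fell in DU145-Esrrb (median 0.53), none past 2-fold, beside the same 37.4% and 58.7% of all tested genes called.

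The list of 15 amino acid response genes holds ATF4, its upstream kinase and genes induced with it. For Esrrb in untreated cells 3 of them were called, all lower, beside 4.18% of all tested genes. With DY131 all 15 were called in DU145-pc3.1 (beside 37.4% of all tested genes), 14 lower and 1 higher, the latter being the kinase EIF2AK4 (log2 fold change 0.36), and the median was -0.74. In DU145-Esrrb 12 were called (beside 58.7%), 10 lower and 2 higher, with a median of -0.33. In DU145-pc3.1 5 fell past 2-fold (beside 4.19% of all tested genes past it), and the largest falls were in CHAC1, which degrades glutathione (log2 fold change -1.64), DDIT4, an inhibitor of mTORC1 (-1.55), ASNS, which makes asparagine (-1.35), and PHGDH, the first enzyme of serine synthesis (-1.20). In DU145-Esrrb PHGDH (-1.24) and ASNS (-1.17) were past 2-fold, beside 12.0% of all tested genes past it. The response differed between the pools in 10 of the 15, beside 33.7% of all tested genes, with 9 higher in DU145-Esrrb, led by ATF3 (1.36) and DDIT3 (1.24), both stress-induced transcription factors. ASNS shares 97.3%, DDIT4 44.1% and DDIT3 30.8% of their 50-base windows with other genes, among them pseudogenes of ASNS and an antisense gene of DDIT4, so their counts are uncertain.

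ATF4 itself, named here after its values were seen, was 655 and 696 cpm in DU145-pc3.1, 620 and 648 in DU145-Esrrb, 484 and 425 in DU145-pc3.1+DY131 and 547 and 558 cpm in DU145-Esrrb+DY131. It was lowest in DU145-pc3.1+DY131. ATF4 shares 22.9% of its windows with pseudogenes.

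Of 16 genes of mTORC1 and its amino acid sensing, none was called for Esrrb in untreated cells, beside 4.18% of all tested genes. With DY131, 4 were called in DU145-pc3.1 (1 higher, 3 lower) and 7 in DU145-Esrrb (2 higher, 5 lower). Of all tested genes 37.4% and 58.7% were called there, and the medians of the list were -0.15 and -0.19. Past 2-fold were the leucine sensor family member SESN3 in DU145-pc3.1 (log2 fold change -1.15, adjusted p = 0.00917) and the GATOR1 subunits DEPDC5 (-1.56, adjusted p = 0.00388) and NPRL2 (-1.06, adjusted p = 5.11e-05) in DU145-Esrrb. Of all tested genes, 4.19% and 12.0% were past 2-fold in these comparisons. There SESN3 went from 61 and 37 reads to 17 and 25, and DEPDC5 from 24 and 29 reads to 8 and 5. SESN3 was also higher in DU145-Esrrb+DY131 than in DU145-pc3.1+DY131 (1.06, adjusted p = 0.0148) and DEPDC5 lower (-1.68, adjusted p = 0.00280). The response of DEPDC5 differed between the pools (-1.66, adjusted p = 0.0208). DEPDC5 shares 62.9% and NPRL2 21.1% of their windows with other genes.

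**Figure D5:**
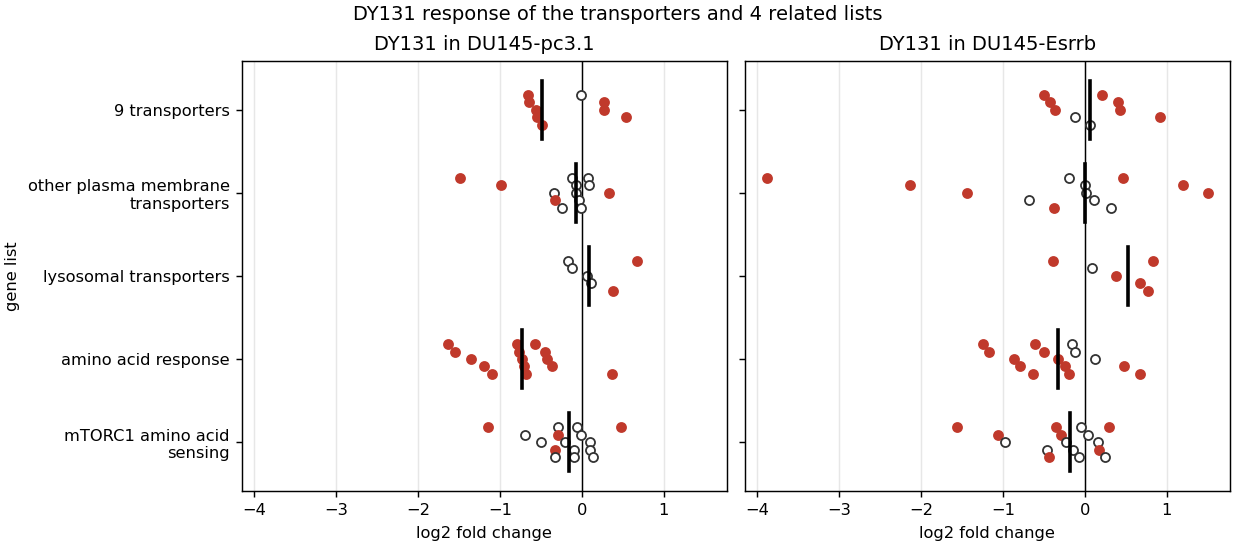
Log2 fold change with DY131 (x axis) of each tested gene of the 9 transporters and 4 related lists (rows) in both pools; filled points have an adjusted p under 0.05 and the black bar is the median of the list. The amino acid response list has medians of -0.74 and -0.33, and the transporters have medians of -0.49 and 0.06.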

How the data were processed

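The series holds 8 libraries of DU145 cells in 4 groups of 2, each a biological replicate per the study. The authors made libraries with a stranded mRNA kit, pooled all samples in 1 lane of single 50-base reads, trimmed the reads (FASTX-Toolkit), aligned them with TopHat2 to the hg18 genome and obtained gene counts with MULTICOM-MAP. The deposited values are raw counts per gene, with 1 RefSeq ID for each symbol, and use of strand in counting is not given in the sources used here. Of the 2 columns for DU145-Esrrb+DY131, which carry the same name, neither could be tied to a replicate number.

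Counts were analysed with edgeR 4.0.16 in R 4.3.3 (TMM factors, glmQLFit and glmQLFTest, all 8 libraries in 1 model), after dropping genes that did not reach 1 cpm in 2 or more libraries, the filter the study used. Depth was 7858743 to 11551690 reads a library. P-values were adjusted by Benjamini-Hochberg over 13856 genes, and the threshold was 0.05, with 2-fold (log2 of 1) as a second rule. Standard errors are the log2 fold change over the square root of F. Alternatives were library size alone, RLE size factors, DESeq2 1.42.0, the exact test, other filters, other sets of libraries, each library left out, the replicate number as a block, and loess corrections for exon junctions and for length and GC content. Lengths, GC content, exon junctions and shared windows came from GENCODE (GRCh38), not hg18. Of 23391 genes, 22018 matched it by RefSeq ID, 721 by symbol, 154 by another symbol of the gene and 498 not at all. The table may count the whole gene or the listed transcript, which the sources used here do not say. The scripts were tested on simulated counts. For DU145-pc3.1+DY131 the quasi-likelihood test recovered 100 of 101 genes changed 2-fold, with 6 false calls. In a second simulation DU145-Esrrb+DY131 held no true change but a junction-linked bias of a strength set in advance. There the uncorrected model, the one reported, made 5470 false calls over 13671 genes, and the junction-corrected model 0. The simulated bias depended on the junction share alone, which is what the correction removes, so the 0 followed from the setup. It cannot show how the correction treats true changes.

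All 9 transporters are named. Of the other lists, called genes past 2-fold are named, at most 4 a comparison by absolute log2 fold change, and genes with 0 reads where fewer than 6. Transporters past both thresholds would also have had their 3 nearest genes named, but there were none. The members and lists were chosen with earlier results of these data known. By the replicate numbers of the sample titles, deviations ran little together: their correlation between groups was between -0.0685 and 0.0917. For some libraries the column name ends in another number than the title. Pairing by the column numbers was not tested and is not excluded. Counts of replicates differed by more than sampling noise. Chi-square per degree of freedom was 7.10 in DU145-pc3.1+DY131, 2.6 in DU145-pc3.1, 1.8 in DU145-Esrrb and 1.29 in DU145-Esrrb+DY131. The groups share 1 estimate of the spread for each gene, so standard errors of comparisons with DU145-pc3.1+DY131 may be too small. Figures were drawn with matplotlib. Some marker genes are not reported here.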

Additional observations from a re-analysis of the deposited data

Results flagged for a closer look

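The response to DY131 differed between DU145-Esrrb and DU145-pc3.1 in 3 transporters by the test of the difference itself, a share at the 33.7% of all tested genes called in the same test. The difference of the log2 fold changes was 0.72 for SLC1A4 (adjusted p = 0.00331), 0.43 for SLC1A5 (adjusted p = 0.00329) and 0.37 for SLC7A6 (adjusted p = 0.0117, edgeR's quasi-likelihood test). SLC1A4 rests on 136 to 251 reads a library, and the libraries of DU145-Esrrb+DY131, at 17.7 and 20.3 cpm, had a larger SD for it (1.85) than those of the other groups. SLC7A6 has a low exon-junction share, and its difference was 0.24 with that correction (adjusted p = 0.123).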

How the results depend on the processing

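Each transporter's log2 fold change was recomputed under up to 19 alternatives a comparison, 783 values in all, of which 735 kept their direction and side of the threshold, 16 lost a call, 15 gained a call and 17 changed sign. With DY131 in DU145-pc3.1, 6 to 8 transporters were called, with 6 after the length and GC correction. With DY131 in DU145-Esrrb the number was between 5 and 8, and between the treated pools between 3 and 5. The number whose response differed between the pools, 3 in the model reported, was 5 without a filter, 5 after the length and GC correction and between 2 and 6 when single libraries were left out, with 6 without DU145-pc3.1+DY131 replicate 1. These counts are given without the share of all tested genes called under the same alternative, and that share moves with the setting. For the difference between the pools it was 33.7% in the model reported and 22.8% with the junction correction. The counts alone therefore do not show whether the transporters shifted more or less than other genes. No alternative brought a transporter past 2-fold.

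Changes of sign were in values that were not called in the model reported. With single libraries left out, the value for Esrrb in untreated cells ran from -0.0374 to 0.0566 for SLC38A2 (-0.011 without DU145-pc3.1 replicate 1), from -0.0727 to 0.00406 for SLC7A6 and from -0.139 to 0.00441 for SLC1A5. For DY131 it ran from -0.0516 to 0.0288 for SLC38A2 in DU145-pc3.1 and from -0.0473 to 0.154 for SLC1A4 in DU145-Esrrb. Between the treated pools it ran from -0.0875 to 0.0617 for SLC6A9. With the length and GC correction SLC1A5 was 0.0441 for DY131 in DU145-Esrrb, and between the treated pools SLC7A1 was -0.00408 and SLC6A9 0.0262. With the junction correction SLC7A1 was -0.0549, SLC38A1 -0.0618, SLC3A2 0.183 and SLC6A9 0.13 between the treated pools, and the difference of SLC7A1 between the DY131 responses was -0.00365. The cause of these shifts was not tested.

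A replicate block by the numbers of the sample titles was fitted to the libraries whose columns carry a number. It left 0 transporters called for Esrrb in untreated cells and 8 for DY131 in DU145-pc3.1, as without it. No alternative moved the median of all genes by more than 0.0664. SLC1A4 and SLC6A9, with the fewest reads, have the widest intervals. Where such an interval spans 0, a change within it cannot be told from no change with 2 libraries a group.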
